A study of Mus musculus with 9 samples.

Results

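The untreated tumors described here were the 3 saline-treated tumors among 9 mammary tumors profiled by RNAseq, and they were chosen by their labels alone: every sample with the treatment saline was taken. The mice had the genotype Brca1Co/Co;MMTV-Cre;p53+/-, and each tumor, named A3673, A3685 or A3688 as in the labels, counted as 1 replicate. Saline was given for 5 doses, 3 times a week, from the time a tumor measured 4 to 5 mm in diameter, after which the mammary gland tumor was taken. The other 6 tumors of the study received the PARP inhibitor Talazoparib, free or in a nanoparticle, and they were not used. In this model Cre is driven by the MMTV promoter, which is active in mammary epithelium, so *Brca1* is removed mainly in that tissue. The conditional allele loses an internal exon, so counts over the whole gene do not check the deletion, and 1 copy of p53 is lost in every cell of the animal. The age of these animals and the sequencing batches were not given in the labels.

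The measurements were counts of reads on genes. In all 35275 genes were listed, of which 12717 had 0 counts in all 3 tumors. Column totals were 19747343 (A3673), 21053253 (A3685) and 21194980 counts (A3688), so depth was similar. Levels of a gene in different tumors are given as CPM, which scales every column to the same total, and levels of different genes are compared as TPM, which also divides by the length of the merged exons. The floor was set at 3 counts, or 0.152 (A3673), 0.142 (A3685) and 0.142 CPM (A3688). A gene was kept for the account of spread when its mean over the 3 tumors was at least 1 CPM, which 14071 genes met, 13111 of them protein coding. Spread is the SD of log2(CPM + 0.5) over the 3 tumors, and a 4-fold range or a 4-fold distance between tumors was counted on the same scale, which understates differences of low genes. With 1 group of 3 tumors no groups were compared and no test was made, so all that follows is description. Intervals and floors hold only the error of counting, since they come from the counts of single tumors. Duplicate reads could not be recognized in counts, so even this error may be larger than given.

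The mammary epithelium has an inner luminal layer, whose cells carry keratins 8 and 18, and an outer basal or myoepithelial layer with keratins 5 and 14. Luminal cells are either hormone sensing, with the estrogen and progesterone receptors, or belong to a progenitor and alveolar branch that makes milk proteins. Tumors that lose *Brca1* are known to be mostly of the basal-like type, which combines keratins of both layers with genes of luminal progenitors.

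A3688 stood apart from the other tumors. Over the kept genes, the Spearman correlation was 0.931 between A3673 and A3685, 0.830 between A3673 and A3688, and 0.834 between A3685 and A3688. They were computed over genes, and genes are not replicates. A 4-fold difference was found for 541 genes between A3673 and A3685, for 1828 between A3673 and A3688, and for 1590 between A3685 and A3688. Over all 3 tumors, 2590 of 14071 kept genes, or 18.4%, had a 4-fold range, and without A3688 this count was 546, without A3673 it was 1644 and without A3685 it was 1885, each over the genes with a mean of at least 1 CPM in the 2 tumors left. The common biological coefficient of variation was 62.9%, and it was 44.4% without A3688. It holds all spread between the libraries beyond counting error, technical differences included. The scatter of each pair of tumors shows the wider cloud in both pairs that hold A3688.

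**Figure D1:**
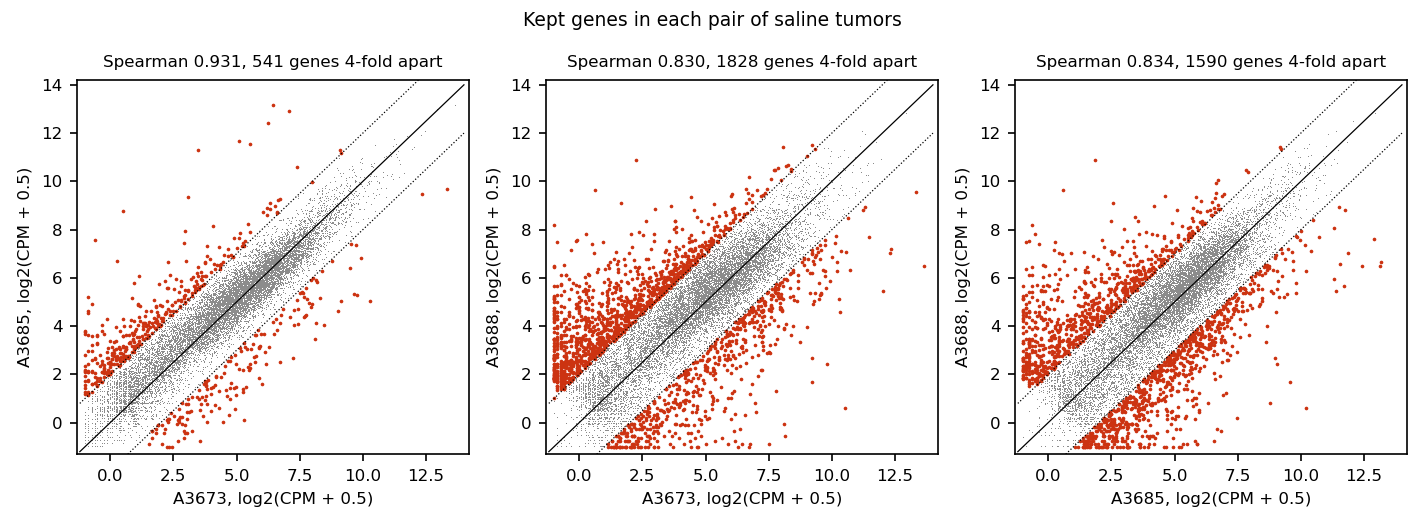
Log2(CPM + 0.5) of the 14071 kept genes in each pair of saline tumors, with 1 point per gene. Red points are at least 4-fold apart, beyond the dotted lines, and number 541 for A3673 and A3685, 1828 for A3673 and A3688, and 1590 for A3685 and A3688.

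A3673 differed from the others in the make-up of its counts. The long noncoding RNA *Gm42418*, which overlaps a copy of the ribosomal RNA gene, took 1.03% of the counts in A3673 (Wilson 95% interval 1.02 to 1.03), 0.0815% in A3685 (0.0803 to 0.0827) and 0.0760% in A3688 (0.0748 to 0.0771). In A3673 levels also moved with gene length. Against the mean of the other 2 tumors, the median log2 difference of A3673 was -0.58 over the 2805 kept genes with the shortest exons and 0.14 over the 2802 with the longest. The same medians were 0.26 and -0.21 in A3685, and 0.31 and 0.06 in A3688. Scaling with the TMM factors of edgeR in place of column totals moved the median of all kept genes by 0.12 on the log2 scale (A3673), -0.03 (A3685) and -0.09 (A3688), and DESeq2 size factors moved it by 0.13, -0.02 and -0.11. Of all kept genes 24.5% (A3673), 30.1% (A3685) and 45.4% (A3688) had their highest level in the tumor named, and under TMM 31.6%, 28.0% and 40.4%. The lowest level was in A3673 for 40.6%, in A3685 for 26.5% and in A3688 for 32.9%, and under TMM for 33.0%, 29.2% and 37.7%. Every list below is to be read beside these shares, the 18.4% with a 4-fold range and the median SD of all kept genes, 0.55. Differences smaller than the shifts by scaling have no fixed direction below, and the part of RNA quality in them was not tested.

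The labels give a mammary gland tumor as the origin. The 6 marker genes below describe epithelial and mesenchymal content, and they cannot tell mammary from other epithelium. *Krt14*, a basal keratin, was at 1086 (A3673), 749 (A3685) and 825 CPM (A3688), or 887 ± 177 CPM (mean ± SD, n = 3). The luminal keratin *Krt8* was at 2322 (A3673), 1055 (A3685) and 982 CPM (A3688), its partner *Krt18* was at 1397 (A3673), 611 (A3685) and 664 CPM (A3688), and the epithelial adhesion gene *Epcam* was at 1046 (A3673), 1124 (A3685) and 813 CPM (A3688). *Vim*, an intermediate filament gene of mesenchymal cells that basal-like tumors also carry, was at 580.2 (A3673), 325 (A3685) and 533 CPM (A3688). All 5 of these genes were well expressed in every tumor, with less than a 4-fold range, and their SDs were 0.28 for *Krt14*, 0.69 for *Krt8*, 0.66 for *Krt18*, 0.25 for *Epcam* and 0.45 for *Vim*, against a median SD of 0.55 over all kept genes. With levels centred within length classes, 2 of the 6 markers had a 4-fold range in place of 1, so this limit did not hold for all 5 there.

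*Krt5*, the usual partner of *Krt14*, did not share this pattern. On chr15:101707070-101712898 of GRCm38, it was at 4.30 (A3673), 3.13 (A3685) and 1901 CPM (A3688). The level in A3688 was 442-fold that in A3673 and 607-fold that in A3685. Per length, *Krt5* was above *Krt14* in A3688, at 2770.5 against 1501 TPM, and far below it in A3673, at 7.39 against 2330.3 TPM. A3673 and A3685 were thus keratin 14 high and keratin 5 low, and only A3688 carried all 6 markers at a high level. The plot of lineage genes sets these markers beside the other genes of each lineage.

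**Figure D2:**
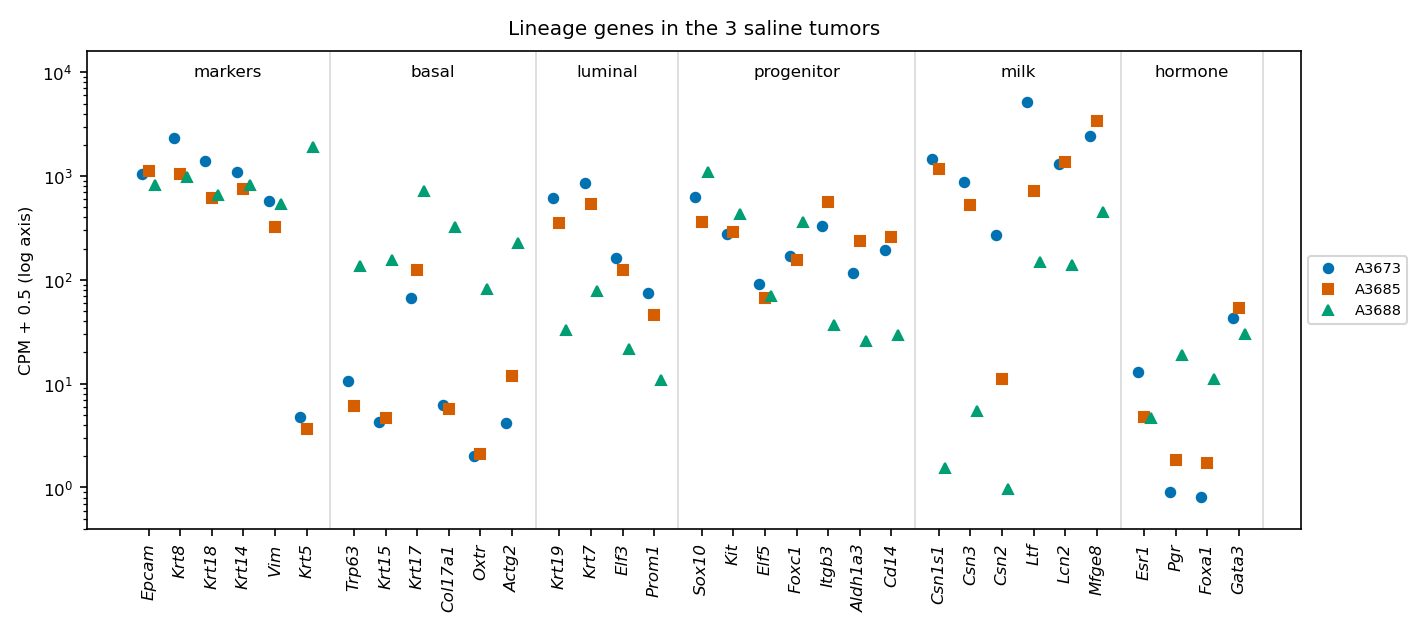
CPM + 0.5, on a log axis, of the 6 markers and of chosen genes of 5 lineage lists in the saline tumors A3673 (circles), A3685 (squares) and A3688 (triangles). *Krt5* is high in A3688 alone, at 1901 CPM, together with *Trp63*, *Krt15* and *Col17a1*, and the caseins are lowest in A3688.

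The basal and myoepithelial list had 20 genes, all kept. A 4-fold range was found for 9 of them, against 18.4% of all kept genes, and without A3688 for 2. *Trp63*, the transcription factor of basal epithelium, was at 10.1 (A3673), 5.65 (A3685) and 135 CPM (A3688). *Krt15* was at 3.75 (A3673), 4.18 (A3685) and 156 CPM (A3688), *Krt17* was at 65.8 (A3673), 124 (A3685) and 713 CPM (A3688), and the hemidesmosome collagen gene *Col17a1* was at 5.67 (A3673), 5.18 (A3685) and 323 CPM (A3688). Each of these genes was at least 4-fold above both others in A3688, as were 8 of the 20, against 4.19% of all kept genes. Genes of the contractile program differed from each other. *Oxtr*, the oxytocin receptor that triggers myoepithelial contraction, was at 1.52 (A3673), 1.61 (A3685) and 81.6 CPM (A3688), and the smooth muscle actin *Actg2* was at 3.70 (A3673), 11.4 (A3685) and 226 CPM (A3688). By contrast, *Acta2*, *Myh11* and *Cnn1*, which also belong to the contractile apparatus, stayed within a 4-fold range, with *Acta2* at 33.9 (A3673), 77.6 (A3685) and 77.5 CPM (A3688) and *Myh11* at 3.95 (A3673), 5.13 (A3685) and 3.87 CPM (A3688). *Cdh3*, which encodes P-cadherin, was lowest in A3685, with 20 counts, and was at 11.3 CPM in A3673 and 128 in A3688. The near-identical keratins *Krt6a* and *Krt6b* may share reads and are uncertain, with *Krt6a* at 209.8 (A3673), 137 (A3685) and 273 CPM (A3688). The summed level of the list was 2964 (A3673), 2089.7 (A3685) and 6159 CPM (A3688), and its median SD was 0.89.

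Luminal and general epithelial genes had a 4-fold range about as often as all kept genes. Of the 20 genes of this list, all kept, 4 had one, against 18.4%, and without A3688 none did. These were *Krt19*, *Krt7*, *Elf3* and *Prom1*, each at least 4-fold below both others in A3688, where 2.52% of all kept genes were. *Krt19*, a luminal keratin, was at 621 (A3673), 349 (A3685) and 32.1 CPM (A3688), *Krt7* was at 857 (A3673), 539 (A3685) and 78.4 CPM (A3688), and the epithelial transcription factor *Elf3* was at 161 (A3673), 123 (A3685) and 20.9 CPM (A3688). The remaining 16 stayed within a 4-fold range, and not all in the same direction. The adhesion gene *Cdh1*, which encodes E-cadherin, was at 935 (A3673), 455 (A3685) and 369 CPM (A3688), and the transcription factor *Ehf* was at 283 (A3673), 326 (A3685) and 273 CPM (A3688). The tight junction gene *Cldn3* was at 253 (A3673), 421 (A3685) and 862 CPM (A3688). In A3673 11 of the 20 had their highest level, against 24.5% of all kept genes, and under TMM 13 did, against 31.6%. Summed over the list, the level was 10261 (A3673), 7474 (A3685) and 6095 CPM (A3688), and the median SD was 0.62.

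Genes of luminal progenitors and basal-like tumors differed in their mix. Of 16 listed genes 13 were kept, *Vgll1* had 0 counts in A3673 and A3685, and 7 of these had a 4-fold range, with 0 without A3688. *Sox10*, a neural crest and mammary stem cell factor, was at 627 (A3673), 359 (A3685) and 1090.3 CPM (A3688). The stem cell factor receptor *Kit* was at 279 (A3673), 289.8 (A3685) and 427 CPM (A3688), and *Elf5*, the transcription factor of the alveolar branch, was at 91.6 (A3673), 67.0 (A3685) and 68.7 CPM (A3688). *Foxc1*, a transcription factor of basal-like tumors, was at 169 (A3673), 154 (A3685) and 358 CPM (A3688), and the receptor subunit gene *Gabrp* was at 263 (A3673), 388 (A3685) and 257 CPM (A3688). These 5 genes had less than a 4-fold range. Others set A3688 apart downward, among them *Itgb3*, the progenitor surface integrin, at 327 (A3673), 567 (A3685) and 36.5 CPM (A3688), and *Cd14*, at 193 (A3673), 256 (A3685) and 29.2 CPM (A3688). *Aldh1a3*, an enzyme of retinoic acid synthesis, was at 116 (A3673), 235 (A3685) and 25.2 CPM (A3688). The transcription factor *Bcl11a* and the chemokine receptor *Cxcr4* were instead at least 4-fold above both others in A3688, with *Bcl11a* at 17.9 (A3673), 9.93 (A3685) and 132 CPM (A3688). The summed level of the list was 2524 (A3673), 2848 (A3685) and 2721 CPM (A3688) and so hardly differed, while its median SD was 1.08.

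The hormone sensing genes were mostly low. *Esr1*, the estrogen receptor gene, was at 12.4 (A3673), 4.32 (A3685) and 4.15 CPM (A3688), and the progesterone receptor gene *Pgr* was at 0.405 (A3673), 1.33 (A3685) and 18.3 CPM (A3688). *Foxa1*, a cofactor of the estrogen receptor, was at 0.304 (A3673), 1.23 (A3685) and 10.6 CPM (A3688). *Pgr* and *Foxa1* were thus near the bottom of the kept range in A3673 and A3685 and higher in A3688, while *Esr1* was highest in A3673. The prolactin receptor gene *Prlr* was at 137 (A3673), 20.04 (A3685) and 54.3 CPM (A3688). Of 14 listed genes 12 were kept, 7 with a 4-fold range, and without A3688 the count was 1. In A3688, 6 genes were at least 4-fold above both others, against 4.19% of all kept genes, namely *Pgr*, *Foxa1*, *Cited1*, *Tbx3*, *Ly6d* and *Myb*. Added up, the genes came to 443 (A3673), 554 (A3685) and 813 CPM (A3688), led in A3688 by *Ly6d* at 332 CPM, and the median SD was 1.47.

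Genes of the mesenchymal state did not move as a block. Of 16 listed genes 15 were kept and 8 had a 4-fold range, with 1 without A3688. *Cdh2*, which encodes N-cadherin, was at 1.16 (A3673), 0.855 (A3685) and 81.8 CPM (A3688), the transcription factor *Snai2* was at 0.810 (A3673), 1.19 (A3685) and 69.8 CPM (A3688), and *S100a4* was at 13.9 (A3673), 13.96 (A3685) and 238 CPM (A3688). These 3 genes were high in A3688 alone. Their counterparts *Snai1*, at 35.4 (A3673), 32.1 (A3685) and 3.73 CPM (A3688), and the matrix genes *Tnc*, at 1188 (A3673), 1188 (A3685) and 77.5 CPM (A3688), and *Spp1*, at 1667 (A3673), 816 (A3685) and 81.0 CPM (A3688), were low in A3688 alone. *Twist1*, another transcription factor of this state, was high in A3673 alone, at 45.2 (A3673), 3.99 (A3685) and 4.95 CPM (A3688). *Zeb1* was at 11.4 (A3673), 16.5 (A3685) and 6.70 CPM (A3688), with less than a 4-fold range. Together the genes reached 6883 (A3673), 6238 (A3685) and 3201 CPM (A3688), the most abundant genes were *Fn1* in A3673 and A3685 and *Sparc* in A3688, and the median SD was 1.10.

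Milk genes had the widest spread of the epithelial lists. Of 16 listed genes 12 were kept, and 11 of these had a 4-fold range. All 12 were lowest in A3688 under every scaling tried, against 32.9% of all kept genes by column totals, and 10 were at least 4-fold below both others there, against 2.52%. *Csn1s1*, a casein gene on chr5:87666208-87682578 and the gene with the largest SD of all, 5.62, was at 1468 (A3673), 1172 (A3685) and 1.04 CPM (A3688). Its level in A3685 was 1129-fold that in A3688. *Csn3*, which encodes kappa casein, was at 884 (A3673), 532 (A3685) and 4.95 CPM (A3688). *Csn2*, which encodes beta casein, was at 272 (A3673), 10.6 (A3685) and 0.472 CPM (A3688), so here A3673 and A3685 differed as well, by 25.7-fold. *Lalba*, the milk protein gene that completes lactose synthase, was at 25.3 (A3673), 0.760 (A3685) and 0 CPM (A3688), and the lactoferrin gene *Ltf* was at 5164 (A3673), 720.4 (A3685) and 148 CPM (A3688). *Lcn2*, an iron-binding lipocalin, was at 1305 (A3673), 1358 (A3685) and 138 CPM (A3688), and *Mfge8*, a protein of milk fat globules, was at 2424 (A3673), 3403 (A3685) and 454 CPM (A3688). Without A3688, 5 of the 12 genes had a 4-fold range, and A3673 was at least 4-fold above both others in 5, against 0.711% of all kept genes. *Wap*, the whey acidic protein gene of late pregnancy and lactation, was at or under the floor of 3 counts in every tumor. The summed level of the list was 12064 (A3673), 7496 (A3685) and 803 CPM (A3688). The most abundant gene was *Ltf* in A3673 and *Mfge8* in A3685 and A3688.

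The promoters of 3 caseins are shown, chosen among the milk genes because they hold the pattern described here. They come from RefSeq on GRCm38.p6 and run 5′ to 3′ on the strand of the gene. Each covers 250 bases before to 50 after the start of the gene in RefSeq. Capitals mark the letters TTCNNNGAA, the pattern known for STAT5, the factor through which prolactin acts on milk genes. The pattern is its own reverse complement, so a match counts for both strands. *Csn1s1* lies on the plus strand, in the window chr5:87665958-87666257, with the match starting 100 bases before the start of the gene. *Csn2* lies on the minus strand, chr5:87699376-87699675, with the match 93 bases before the RefSeq start. *Csn1s2a* lies on the plus strand, chr5:87774200-87774499, with the match 20 bases after the RefSeq start. In GENCODE M21, *Csn1s2a* starts at 87774567, past the end of its window, and *Csn2* starts at 87699630. The distances of these matches therefore hold for the RefSeq starts only.
Csn1s1: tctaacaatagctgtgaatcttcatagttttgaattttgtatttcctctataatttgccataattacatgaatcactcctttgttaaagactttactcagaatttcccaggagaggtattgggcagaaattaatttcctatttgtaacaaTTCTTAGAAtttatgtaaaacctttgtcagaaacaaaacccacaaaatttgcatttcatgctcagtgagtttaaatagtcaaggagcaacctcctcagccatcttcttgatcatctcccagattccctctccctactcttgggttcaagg
Csn2: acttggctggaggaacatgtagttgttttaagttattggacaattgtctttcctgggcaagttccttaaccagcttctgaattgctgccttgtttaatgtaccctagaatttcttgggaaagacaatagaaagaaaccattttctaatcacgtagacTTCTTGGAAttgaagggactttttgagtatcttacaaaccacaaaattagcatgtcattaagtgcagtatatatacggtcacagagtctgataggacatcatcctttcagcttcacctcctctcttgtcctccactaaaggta
Csn1s2a: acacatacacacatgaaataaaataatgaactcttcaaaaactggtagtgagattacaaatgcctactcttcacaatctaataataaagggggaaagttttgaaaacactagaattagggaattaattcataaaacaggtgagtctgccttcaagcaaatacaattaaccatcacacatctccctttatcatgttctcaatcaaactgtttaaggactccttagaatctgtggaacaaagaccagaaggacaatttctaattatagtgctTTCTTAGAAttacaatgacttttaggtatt

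Of the 16 milk genes 11 were found in the promoter table, and 4 of these held TTCNNNGAA in the window, *Glycam1* being the other, where 9.55% of all 27025 genes and 8.30% of all 32851 promoters of the same length did. A match describes the letters only, and binding was not measured. *Glycam1* and *Csn1s2a* were also lowest in A3688, with *Csn1s2a* at 76.9 (A3673), 8.36 (A3685) and 0 CPM (A3688) and *Glycam1* at 25.2 (A3673), 8.26 (A3685) and 0 CPM (A3688). Both had 0 counts in A3688, so *Csn1s2a* was at least 543-fold and *Glycam1* at least 178-fold higher in A3673, as bounds against the floor.

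The highest mean TPM of all was that of the mitochondrial gene *mt-Co1*, 16812, followed by *mt-Cytb* at 10121 and *mt-Nd1* at 8604. Outside the mitochondrial genome, the 15 genes with the highest mean TPM were *Gm42418*, *Rplp1*, *Eef1a1*, *Ptma*, *Rpl36*, *Rps15*, *Actb*, *Rpl8*, *Wfdc18*, *Rpl19*, *Actg1*, *Rpl34-ps1*, *Met*, *Rps2* and *Cav2*. *Gm42418* was at 21142 (A3673), 1449 (A3685) and 1328 TPM (A3688), and it led the ranking through A3673 alone. *Eef1a1*, the elongation factor that brings transfer RNA to the ribosome, was at 8441 (A3673), 5549 (A3685) and 7168 TPM (A3688). *Rplp1*, of the ribosomal stalk, was at 4134 (A3673), 8364 (A3685) and 10346 TPM (A3688), and *Rpl36* was at 1936 (A3673), 5996 (A3685) and 5808 TPM (A3688). *Rplp1* and *Rpl36*, both short, were lowest in A3673, as was the median of short genes in general, and the part of the length trend in this was not tested. *Rpl34-ps1* is a processed pseudogene whose reads cannot be told from those of its parent gene, and its level of 1205 (A3673), 3133 (A3685) and 6269 TPM (A3688) is uncertain. *Actb*, the cytoplasmic actin, was at 3267 (A3673), 3306 (A3685) and 5039.8 TPM (A3688).

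**Figure D3:**
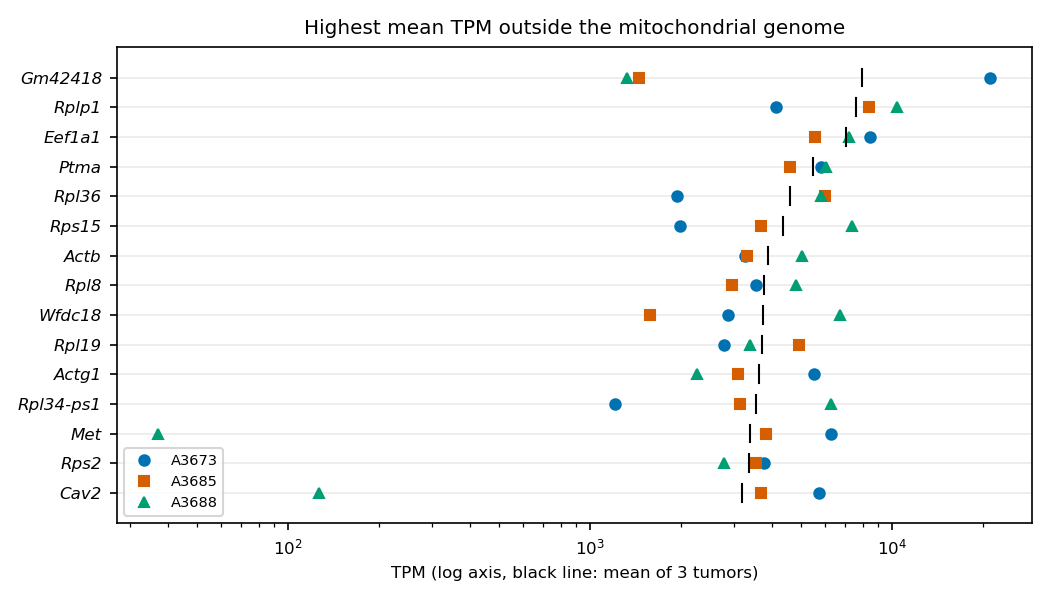
TPM, on a log axis, of the 15 genes with the highest mean TPM outside the mitochondrial genome, with 1 point per saline tumor and a black line at the mean of the 3. *Met* and *Cav2* are in the list through A3673 and A3685 and are at 37.1 and 126 TPM in A3688, and *Gm42418* is high through A3673.

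Among these genes, *Met* and *Cav2* set A3688 apart, while *Wfdc18*, *Rps15* and the uncertain *Rpl34-ps1* had a 4-fold range with no tumor apart. *Rps15*, a ribosomal protein gene, was at 1976 (A3673), 3687.6 (A3685) and 7372 TPM (A3688). *Wfdc18*, a secreted protein of the whey acidic protein family found in mammary epithelium, was at 2849 (A3673), 1581 (A3685) and 6737 TPM (A3688). *Met*, the hepatocyte growth factor receptor, was at 6268 (A3673), 3811 (A3685) and 37.1 TPM (A3688). *Cav2*, a caveolin gene near *Met* on chromosome 6, was at 5733 (A3673), 3687 (A3685) and 126 TPM (A3688). In CPM, *Met* was at 12764 (A3673), 8988 (A3685) and 89.0 CPM (A3688), and it had more counts than any other gene in A3673. The 10 genes with the most counts took 6.14% (Wilson 95% interval 6.13 to 6.15) of the total in A3673, 5.77% (5.76 to 5.78) in A3685, and 3.74% (3.73 to 3.75) in A3688. In A3685 these included *Tes*, *Met*, *Capza2*, *Tmem106b*, *Cav2* and *Impdh1*, all of chromosome 6. Genes of the mitochondrial genome took 1.97% (Wilson 95% interval 1.96 to 1.97), 1.98% (1.97 to 1.98) and 1.51% (1.503 to 1.513). Their most abundant gene, *mt-Co1*, a subunit of the last enzyme of the respiratory chain, was at 7875 (A3673), 7877 (A3685) and 7052 CPM (A3688).

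Each tumor had genes of its own. A gene was at least 4-fold above both others in A3673 for 100 kept genes (0.711%), in A3685 for 150 (1.07%) and in A3688 for 590 (4.19%). It was at least 4-fold below both others in A3673 for 131 (0.931%), in A3685 for 44 (0.313%) and in A3688 for 354 (2.52%). With levels centred within classes of exon length, A3673 had 81 genes below and A3685 99 genes above both others.

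The genes farthest above both others in A3688 were *Trim29*, *Sostdc1*, *Krt5*, *Gm11264* and *Tmem132b*. *Trim29*, a tripartite motif gene of basal epithelia, was at 1.06 (A3673), 0.997 (A3685) and 796 CPM (A3688), a 748-fold distance to the nearer tumor. *Sostdc1*, a secreted antagonist of BMP and Wnt signals, had 0 counts in A3673, 3 in A3685 and 6269 in A3688, so its level in A3688 was at least 1947-fold that in A3673, against the floor, and 2076-fold (95% counting interval 709.9 to 10068) that in A3685. *Gm11264*, a long noncoding RNA, had 3795 counts in A3688 and 1 in each of the others, a ratio to A3673 of 3536-fold (95% counting interval 634 to 139693). *Tmem132b*, a transmembrane protein gene, was at 0.405 (A3673), 0.0950 (A3685) and 185 CPM (A3688). All 5 were at or below 4.30 CPM in A3673 and A3685.

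Farthest below both others in A3688 were *Csn1s1*, *Fcgbp*, *C530043A13Rik*, *Il24* and *Met*. *Fcgbp*, a mucin-like secreted protein, was at 594 (A3673), 765 (A3685) and 2.69 CPM (A3688), and the long noncoding RNA *C530043A13Rik* was at 71.0 (A3673), 92.8 (A3685) and 0.0944 CPM (A3688). *Il24*, a cytokine gene, had 2111 counts in A3673, 1249 in A3685 and 1 in A3688, so the ratio of A3685 to A3688 was 1257-fold (95% counting interval 225 to 49704). A3673 and A3685 were alike for these genes, within 1.80-fold for *Il24*, and A3688 was low.

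In A3673 the genes farthest above both others were *Mios*, *Csn2*, *Hlf*, *Ica1* and *Umad1*, and *Mios*, *Ica1* and *Umad1* lie within the same run of 8 kept genes on chromosome 6. *Hlf*, a transcription factor of the PAR family, was at 152 (A3673), 5.98 (A3685) and 4.01 CPM (A3688). Those farthest below were *Fgfr3*, *Evc2*, *Cftr*, *Gpa33* and *Gprasp2*. The receptor gene *Fgfr3* was at 0.709 (A3673), 104.7 (A3685) and 39.5 CPM (A3688), and *Gpa33*, an epithelial surface antigen, was at 0 (A3673), 13.4 (A3685) and 19.2 CPM (A3688), with 0 counts in A3673 and so at least 126-fold higher in A3688. In A3685 the genes farthest above were *Thsd7a*, *Tes*, *Impdh1*, *Tmem106b* and *Cldn6*, of which all but *Cldn6* lie on chromosome 6. *Cldn6*, an embryonic claudin gene, was at 0.101 (A3673), 29.9 (A3685) and 0 CPM (A3688), at least 211-fold higher than in A3688 against the floor. Those farthest below in A3685 were *Dmrta2*, *Foxf2*, *Plppr4*, *Slc6a14* and *Trpv6*, with the transcription factor gene *Foxf2* at 21.5 (A3673), 0.522 (A3685) and 50.5 CPM (A3688) and *Dmrta2* at 38.8 (A3673), 0.570 (A3685) and 34.6 CPM (A3688).

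Ranked by SD, the 25 most variable kept genes were *Csn1s1*, *Sostdc1*, *Trim29*, *Krt5*, *Gm11264*, *Thsd7a*, *Tmem132b*, *Tenm3*, *Fcgbp*, *Igf2bp1*, *Muc13*, *Gpx2*, *Irx4*, *Il24*, *Wnt10a*, *Cftr*, *C530043A13Rik*, *Spon2*, *Csn2*, *Id4*, *Csn3*, *C130021I20Rik*, *H19*, *Met* and *Bmp7*. Of these 13 were highest in A3688, 7 in A3673 and 5 in A3685. The SDs ran from 3.99 for *Bmp7* to 5.62 for *Csn1s1*. Of the 100 most variable genes, 57 were highest in A3688, 24 in A3685 and 19 in A3673, 23 had 0 counts in a tumor, and 15 were in one of the gene lists. With the edgeR tagwise dispersion as the measure of spread, 35 of the 100 genes were shared.

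Of the 25 genes, *Wnt10a*, a Wnt ligand, was at 0.304 (A3673), 0.665 (A3685) and 140.4 CPM (A3688), and the BMP ligand *Bmp7* was at 1.42 (A3673), 0.712 (A3685) and 180.3 CPM (A3688). *Id4*, an inhibitor of helix-loop-helix factors expressed in basal cells, was at 2.63 (A3673), 5.46 (A3685) and 551 CPM (A3688). The homeobox gene *Irx4* had 0 counts in A3673 and 3 in A3685 and was at 87.8 CPM in A3688, at least 578-fold higher than in A3673 against the floor. These 4 were high in A3688 alone, as were the teneurin gene *Tenm3*, at 0.709 (A3673), 0.190 (A3685) and 226 CPM (A3688), the glutathione peroxidase *Gpx2*, at 0.912 (A3673), 0.285 (A3685) and 167 CPM (A3688), and *Spon2*, at 0 (A3673), 0.427 (A3685) and 88.5 CPM (A3688). The noncoding RNA *C130021I20Rik*, annotated as antisense, was at 0.152 (A3673), 0.380 (A3685) and 92.1 CPM (A3688), and since the strand setting is not known its reads may belong to the gene opposite.

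Others were graded over the tumors. *Igf2bp1*, a binding protein of fetal messenger RNA, was at 181 (A3673), 40.4 (A3685) and 0.0472 CPM (A3688), and *Muc13*, a transmembrane mucin gene, was at 284 (A3673), 17.0 (A3685) and 0.189 CPM (A3688). Both fell in the same order, A3673 above A3685 above A3688. *H19*, an imprinted noncoding RNA of fetal tissue, was at 10.5 (A3673), 2517 (A3685) and 62.2 CPM (A3688), and *Cftr*, a chloride channel gene, was at 0.152 (A3673), 192 (A3685) and 19.01 CPM (A3688). These 2 were highest in A3685, with 3 counts of *Cftr* in A3673, a ratio of 1262-fold (95% counting interval 432 to 6123) between A3685 and A3673.

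The steadiest genes give the other end of the scale. Among the 2410 kept genes with a mean of at least 100 CPM, whose median SD was 0.50, the 10 with the smallest SD were *Srp72*, *Rbck1*, *Sgpl1*, *Ier5*, *Sdhc*, *Lsm14a*, *Ap2m1*, *Eif4e2*, *Hnrnpul1* and *Foxk2*. *Srp72*, of the signal recognition particle, was at 109.9 (A3673), 109.8 (A3685) and 112 CPM (A3688), with an SD of 0.02. *Ap2m1*, of the clathrin adaptor, was at 265 (A3673), 277 (A3685) and 277 CPM (A3688), and *Sdhc*, of succinate dehydrogenase, was at 98.0 (A3673), 103 (A3685) and 101 CPM (A3688). Against 0.50 for the 2410 genes and 0.55 for all kept genes, the median SD of the 14 listed reference genes was 0.45. Of these 14, 0 had a 4-fold range. Among these *Tbp* was at 29.8 (A3673), 31.9 (A3685) and 27.4 CPM (A3688), *Gapdh* was at 1269 (A3673), 1649 (A3685) and 1115 CPM (A3688) and *Rplp0* was at 823 (A3673), 1200.4 (A3685) and 2577 CPM (A3688). Of the 14, 9 were highest in A3688 and 8 under TMM, and the summed level was 13068 (A3673), 12523 (A3685) and 16839 CPM (A3688).

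Some of the genes that set a tumor apart were neighbours. In windows of 15 kept genes along the chromosomes, the median log2 difference of a tumor from the mean of the other 2 passed 1 or -1 in 169 merged regions. Of these, 65 were higher and 25 lower in A3688, 17 higher and 14 lower in A3685, and 3 higher and 45 lower in A3673. These counts depended on the setting. Under TMM scaling A3673 had 17 higher and 22 lower regions and A3688 had 61 and 39. Windows of 25 genes gave 66 regions in all, of which A3673 had 0 higher and 18 lower, A3685 had 7 and 4, and A3688 had 33 and 4. A gene that is high in 1 tumor also makes the others low by this measure, so the directions are not independent. A narrower count, made after seeing the data, took runs of at least 3 kept genes in a row that were each at least 4-fold apart in the same tumor and direction, and it found 25 runs with 100 genes.

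The strongest region lay on chromosome 6. It held 31 kept genes at chr6:8630527-21976038, and its largest window median was 3.07, in A3685. A wider stretch, from *Col28a1* to *Impdh1*, chr6:7997808-29216364 of GRCm38, held 57 kept genes with a median SD of 1.57. Of these, 40 had a 4-fold range, against 18.4% of all kept genes. In this stretch A3673 had 8 genes at least 4-fold above both others and 5 below, A3685 had 12 above, and A3688 had 4 above and 4 below. Each gene was counted once here. Genes above both others in a tumor and also below both others in another, such as *Cftr* and *St7*, were counted as above only. The stretch was chosen for these values, so the counts describe it and support nothing else.

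At the near end, all 8 kept genes in a row from *Col28a1* to *Ica1* were high in A3673 alone. *Mios*, a subunit of a nutrient sensing complex upstream of mTOR, was at 1243 (A3673), 32.1 (A3685) and 34.1 CPM (A3688), and its level in A3673 was 36.5-fold that in A3688. *Rpa3*, of the single-stranded DNA binding complex, was at 878 (A3673), 38.7 (A3685) and 47.7 CPM (A3688), and *Ica1* was at 353 (A3673), 16.01 (A3685) and 15.5 CPM (A3688). Within the run, *Gm8428* lies inside *Umad1* and *A430035B10Rik* overlaps *Glcci1*, so the counts of these pairs are uncertain. The next kept gene, *Ndufa4*, a respiratory chain gene, was instead lowest in A3673, at 66.0 (A3673), 420.4 (A3685) and 467 CPM (A3688).

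Further along, genes were high in A3685 alone. *Thsd7a*, a membrane protein gene, was at 0.912 (A3673), 438 (A3685) and 1.27 CPM (A3688), and the lysosomal membrane gene *Tmem106b* was at 74.7 (A3673), 5482 (A3685) and 88.6 CPM (A3688). Then came genes within the same stretch that were not high in any tumor alone, such as *Tmem168*, at 46.9 (A3673), 78.6 (A3685) and 76.7 CPM (A3688), and *Bmt2*, at 27.1 (A3673), 48.4 (A3685) and 37.3 CPM (A3688). *Mdfic* was again high in A3685, at 46.4 (A3673), 2960.0 (A3685) and 95.3 CPM (A3688), and so was *Tes*, a focal adhesion gene, at 87.7 (A3673), 9282 (A3685) and 99.2 CPM (A3688). The noncoding genes *Gm15473* and *Gm4876* beside and over *Tes* rose with it, and their reads may be those of *Tes*.

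Around *Met* the pattern changed within a few genes. *Cav2*, at 5070.1 (A3673), 3776 (A3685) and 132 CPM (A3688), *Cav1*, at 350.1 (A3673), 477 (A3685) and 79.9 CPM (A3688), and *Met*, at 12764 (A3673), 8988 (A3685) and 89.0 CPM (A3688), were high in both A3673 and A3685 and at least 4-fold lower in A3688. The next gene, *Capza2*, of the actin capping protein, was at 133 (A3673), 7691 (A3685) and 195 CPM (A3688), and *St7* was at 8.05 (A3673), 652 (A3685) and 36.1 CPM (A3688), so these were high in A3685 only. *Cttnbp2*, a little further on, was high in A3688 only, at 0.506 (A3673), 0.142 (A3685) and 50.3 CPM (A3688). Of the genes after that, *Wasl* was at 69.9 (A3673), 80.8 (A3685) and 103 CPM (A3688) and *Snd1* was at 333 (A3673), 308 (A3685) and 192 CPM (A3688), with no tumor apart. *Impdh1*, an enzyme of guanine nucleotide synthesis, was at 34.0 (A3673), 3305 (A3685) and 50.4 CPM (A3688). Levels of adjacent genes on this chromosome thus changed between high and not high several times, and in different tumors, as the plot by distance from *Met* shows. The DNA of these tumors was not analysed here.

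**Figure D4:**
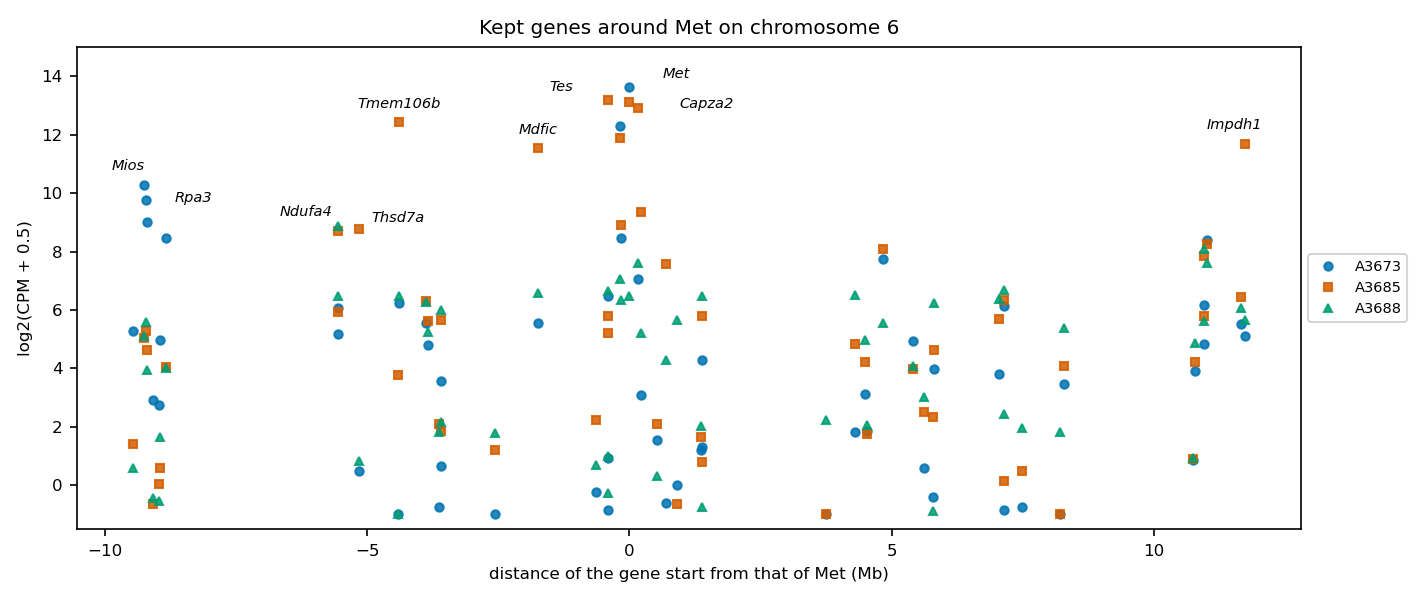
Log2(CPM + 0.5) of the 57 kept genes from *Col28a1* to *Impdh1* against the distance in Mb of their start from the start of *Met*, with 1 point per gene and saline tumor. Genes from *Mios* to *Rpa3* are high in A3673 (circles), *Tmem106b*, *Mdfic*, *Tes*, *Capza2* and *Impdh1* are high in A3685 (squares), and *Met* is high in both.

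Other receptors and oncogenes varied less than *Met*. Of 25 listed genes 23 were kept, and 8 had a 4-fold range, with 1 without A3688. The epidermal growth factor receptor gene *Egfr* was at 90.2 (A3673), 40.7 (A3685) and 41.9 CPM (A3688), *Erbb2* was at 202 (A3673), 354 (A3685) and 235 CPM (A3688), and *Myc* was at 97.0 (A3673), 86.2 (A3685) and 209 CPM (A3688). *Fgfr2*, a fibroblast growth factor receptor gene, was high in A3688 alone, at 3.39 (A3673), 0.855 (A3685) and 129.7 CPM (A3688), and the cyclin gene *Ccnd2* was at 20.1 (A3673), 23.4 (A3685) and 200.1 CPM (A3688). *Hras* was at 33.3 (A3673), 68.1 (A3685) and 300.4 CPM (A3688), and *Mycn* was lowest in A3685, at 3.19 (A3673), 0.427 (A3685) and 18.97 CPM (A3688). In A3685 the Wnt ligand gene *Wnt10b* stood apart, at 0.760 (A3673), 8.26 (A3685) and 0.472 CPM (A3688). In sum they came to 20199 (A3673), 15279.8 (A3685) and 3791 CPM (A3688), led by *Met* in A3673 and A3685 and by *Fgfr1* in A3688, and the median SD was 0.71.

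In the Notch and Wnt list, 19 of 20 genes were kept and 5 had a 4-fold range, with 0 without A3688. The receptor gene *Notch1* was at 362 (A3673), 197 (A3685) and 255 CPM (A3688), and the targets *Hes1* and *Axin2* were within a 4-fold range. Among the 5 were 4 ligand genes. *Jag2*, a Notch ligand gene, was at 27.6 (A3673), 11.1 (A3685) and 323 CPM (A3688), and *Wnt6* was at 0.253 (A3673), 0.190 (A3685) and 23.4 CPM (A3688), both high in A3688, while *Wnt7b* was low there, at 425 (A3673), 391 (A3685) and 9.58 CPM (A3688). The summed level of the list was 1335 (A3673), 1119.7 (A3685) and 1274 CPM (A3688), and the median SD was 0.68.

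Most proliferation genes were highest in A3688. All 32 listed genes were kept, 6 had a 4-fold range, none without A3688 and 2 without A3685, and 30 were highest in A3688, against 45.4% of all kept genes. This count was 25 under TMM, 24 under DESeq2 size factors and 22 with levels centred within length classes, so the direction held for most and not for all. *Mki67*, the antigen of cycling cells, was at 253 (A3673), 101 (A3685) and 967 CPM (A3688), the mitotic kinase gene *Cdk1* was at 41.1 (A3673), 50.8 (A3685) and 216 CPM (A3688), and the cyclin gene *Ccnb1* was at 52.97 (A3673), 28.6 (A3685) and 180.2 CPM (A3688). *Top2a*, a topoisomerase of dividing cells, was instead highest in A3673, at 379 (A3673), 240.1 (A3685) and 334 CPM (A3688). A3685 had the lowest level of 26 of the 32, and of 28 under TMM, against 26.5% and 29.2% of all kept genes. As a whole the list was at 2800.4 (A3673), 1861 (A3685) and 5085 CPM (A3688), and the median SD was 0.63.

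Of the genes of the genotype and of DNA repair, *Brca1* was at 28.9 (A3673), 29.5 (A3685) and 43.9 CPM (A3688). *Trp53*, which encodes p53, was at 20.7 (A3673), 34.5 (A3685) and 46.9 CPM (A3688), and *Parp1*, the main target of Talazoparib, was at 153 (A3673), 135 (A3685) and 161 CPM (A3688). *Brca2* was the 1 gene of 6 with a 4-fold range, at 18.6 (A3673), 7.69 (A3685) and 58.9 CPM (A3688), and without A3688 or without A3685 none had one. All 6 were highest in A3688, where 45.4% of all kept genes were, and 5 under TMM, against 40.4%, under which *Parp1* was highest in A3673. The list sum was 266 (A3673), 243 (A3685) and 387 CPM (A3688), with *Parp1* the most abundant, and the median SD was 0.57. Among 12 p53 targets, all kept, 2 had a 4-fold range, namely *Pmaip1* and *Trp53inp1*, and none without A3688 or without A3685. The cell cycle inhibitor *Cdkn1a* was at 40.8 (A3673), 50.3 (A3685) and 47.4 CPM (A3688), and *Mdm2*, which degrades p53, was at 53.9 (A3673), 71.4 (A3685) and 60.1 CPM (A3688). The list sum was 412 (A3673), 541 (A3685) and 555 CPM (A3688), and the median SD was 0.56.

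Of 16 genes of hypoxia and glycolysis, all kept, 2 had a 4-fold range, 4 under DESeq2 size factors, 1 without A3685 and none without A3688, against 18.4% of all kept genes, and 10 were lowest in A3688, 11 under TMM, against 32.9% and 37.7%. *Vegfa*, the vascular growth factor gene, was at 322 (A3673), 295 (A3685) and 85.6 CPM (A3688), and the hormone gene *Adm* was at 38.5 (A3673), 15.1 (A3685) and 1.37 CPM (A3688). The list sum was 4647 (A3673), 4232 (A3685) and 2585 CPM (A3688), and the median SD was 0.63. Immediate early genes went both ways. All 12 were kept, 6 had a 4-fold range, against 18.4% of all kept genes, none without A3688 and 3 without A3673, and 9 were lowest in A3688, against 32.9%, such as *Fos*, at 117 (A3673), 45.9 (A3685) and 26.7 CPM (A3688), while *Egr1* was highest there, at 152 (A3673), 233 (A3685) and 702 CPM (A3688). Their sum was 1383 (A3673), 1484 (A3685) and 1406 CPM (A3688), and their median SD was 1.02.

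Imprinted genes of fetal growth differed from tumor to tumor. Of 14 listed, 11 were kept and 6 had a 4-fold range, with 5 without A3688, 6 without A3673 and 4 without A3685. *H19* was high in A3685 alone, and its neighbour *Igf2*, a growth factor gene, was also highest there, at 4.10 (A3673), 23.8 (A3685) and 1.51 CPM (A3688). *Peg3* was at 223 (A3673), 34.3 (A3685) and 1.98 CPM (A3688), *Mest* was at 11.3 (A3673), 8.22 (A3685) and 187 CPM (A3688), and the cell cycle inhibitor *Cdkn1c* was at 0.101 (A3673), 2.52 (A3685) and 38.8 CPM (A3688). Each tumor was thus the high one for at least 1 of these genes. The genes summed to 289 (A3673), 2621 (A3685) and 368 CPM (A3688), of which *H19* was the largest share in A3685, and the median SD was 1.83. The 14 chondroid matrix genes were as mixed, with 12 kept and 9 at a 4-fold range, and 5 without A3685. *Col9a1*, a cartilage collagen gene, was at 188 (A3673), 85.7 (A3685) and 8.78 CPM (A3688), *Snorc*, a cartilage proteoglycan gene, was at 7.44 (A3673), 104 (A3685) and 463 CPM (A3688), and *Acan*, which encodes aggrecan, was at 0.354 (A3673), 12.4 (A3685) and 1.89 CPM (A3688). *Col2a1*, the main cartilage collagen, was at 14.8 ± 6.81 CPM (mean ± SD, n = 3). The summed level was 721 (A3673), 917 (A3685) and 1681 CPM (A3688), and the median SD was 1.75.

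Markers of other cell types were read in the same way, as whole lists. In bulk RNA fewer cells of a type and less RNA per cell cannot be told apart, and the part of these cells in the results above was not tested. Macrophage and dendritic genes were highest in A3685. Of 15 listed genes 13 were kept, 12 of these were highest in A3685, against 30.1% of all kept genes, and 8 had a 4-fold range, with 0 without A3685, 4 without A3688 and 5 without A3673. The lysozyme gene *Lyz2*, the most abundant, was at 170.0 (A3673), 1568 (A3685) and 417 CPM (A3688), and the receptor gene *Csf1r* was at 103 (A3673), 326 (A3685) and 84.0 CPM (A3688). Summed over the list, the level was 780.2 (A3673), 3707 (A3685) and 979.7 CPM (A3688), and no gene of the list was at 0.

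MHC class II genes, which present antigen, moved with them. All 8 were kept, all 8 had a 4-fold range and all 8 were highest in A3685, under every scaling tried. *Cd74*, the invariant chain and the most abundant, was at 543 (A3673), 2532 (A3685) and 266 CPM (A3688), and *H2-Ab1* was at 79.5 (A3673), 544 (A3685) and 58.7 CPM (A3688). Added up, the genes came to 885 (A3673), 4005 (A3685) and 435 CPM (A3688), and without A3685 1 of the 8 had a 4-fold range, without A3688 5. The tumor highest for macrophage genes was thus also highest for MHC class II genes.

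Neutrophil genes were lowest in A3688. Of 12 listed, 8 were kept, all 8 were lowest in A3688 under every scaling tried, 7 were highest in A3685, and 7 had a 4-fold range, with 1 without A3688. *S100a8*, a granule protein gene, was at 10.2 (A3673), 57.7 (A3685) and 1.23 CPM (A3688), and the receptor gene *Csf3r* was at 46.3 (A3673), 75.8 (A3685) and 5.66 CPM (A3688). Together the genes reached 153 (A3673), 353 (A3685) and 21.5 CPM (A3688), and *Ngp* had 0 counts in A3688 and *Camp* in A3673. Interferon response genes followed less clearly. Of 18 listed, 13 were kept, 7 had a 4-fold range and 1 without A3688. In A3685 6 were highest, 8 under TMM, against 30.1% and 28.0% of all kept genes. In A3688 8 were lowest, 9 under TMM, against 32.9% and 37.7%. There 4 were at least 4-fold below both others, against 2.52%. *Gbp2* was at 212 (A3673), 66.8 (A3685) and 9.15 CPM (A3688), and *Isg15* was at 2.33 (A3673), 6.70 (A3685) and 11.7 CPM (A3688). In sum they came to 325 (A3673), 239 (A3685) and 66.8 CPM (A3688), the median SD was 1.15, and *Mx1* was at 0 in A3673 and *Oas1a* and *Oas2* in A3688.

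Most of the listed lymphocyte genes were not kept. Of 14 T and NK cell genes 4 were kept, 3 with a 4-fold range, and this count fell to 1 without A3685 and 1 without A3688. As a whole the list was at 6.63 (A3673), 25.7 (A3685) and 18.3 CPM (A3688), with *Lck* the most abundant in A3673 and A3685 and *Cd4* in A3688, *Ncr1* at 0 in all 3 tumors and *Prf1* at 0 in A3673. Of 13 B and plasma cell genes 6 were kept, 4 with a 4-fold range, 2 without A3685 and 0 without A3688. The sum was 7.80 (A3673), 25.8 (A3685) and 19.9 CPM (A3688), with *Ighm* the most abundant. Of 8 genes of lymph node stroma and high endothelial venules 2 were kept, and 1 of these, *Cxcl13*, had a 4-fold range, at 0.962 (A3673), 15.5 (A3685) and 0.0472 CPM (A3688), and none without A3685. The sum was 2.18 (A3673), 20.1 (A3685) and 3.49 CPM (A3688), and *Ccl21a* was at 0 in A3688.

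Skeletal muscle genes were graded over the tumors. Of 22 listed genes 21 were kept, 20 had a 4-fold range, 10 without A3688 and 4 without A3673, and 20 were highest in A3688, under every scaling tried. *Acta1*, the actin of skeletal muscle and the most abundant in A3685 and A3688, was at 4.61 (A3673), 68.5 (A3685) and 238 CPM (A3688), and the myosin gene *Myh4* was at 5.32 (A3673), 45.7 (A3685) and 219 CPM (A3688). The sum was 57.6 (A3673), 314 (A3685) and 1091 CPM (A3688), all 21 kept genes were lowest in A3673, against 40.6% of all kept genes, and *Tnnc2* was at 0 in every tumor. The share of muscle genes in the counts was thus unlike in the 3 tumors, and its part in the genes apart in A3688 was not tested. Adipocyte genes were low, with 5 of 14 kept, 2 with a 4-fold range, 1 under TMM, 1 without A3673 and none without A3688. As with most muscle genes, they were highest in A3688 and lowest in A3673, all 5 of them, against 45.4% and 40.6% of all kept genes. Under DESeq2 size factors 4 were highest in A3688. Centred within length classes, 4 were highest in A3688 and 3 lowest in A3673. The sum was 26.4 (A3673), 44.8 (A3685) and 121 CPM (A3688), with *Lpl* the most abundant in A3673 and A3685 and *Car3* in A3688, *Adipoq* at 0.203 (A3673), 0.0950 (A3685) and 0.661 CPM (A3688), and *Lep* at 0 in A3673 and A3685.

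The lists of fibroblast and endothelial genes were among the steadiest. Of 14 fibroblast genes, all kept, 0 had a 4-fold range, and the median SD was 0.41, below that of all kept genes. *Col1a1*, the main collagen gene and the most abundant, was at 888 (A3673), 679.8 (A3685) and 508 CPM (A3688), and the receptor gene *Pdgfra* was at 20.2 (A3673), 17.0 (A3685) and 15.7 CPM (A3688). The sum was 2461 (A3673), 2210.3 (A3685) and 2058 CPM (A3688). Of 14 endothelial and pericyte genes, all kept, 2 had a 4-fold range, *Vwf* and *Cspg4*, against 18.4% of all kept genes, and none without A3688. *Pecam1* was at 29.4 (A3673), 40.4 (A3685) and 19.2 CPM (A3688), 10 of the 14 were highest in A3685 under column totals and TMM alike, against 30.1% and 28.0% of all kept genes, the most abundant was *Notch3* and the sum was 376 (A3673), 475 (A3685) and 467 CPM (A3688). No gene of either list was at 0. Of 10 Schwann cell genes 7 were kept, 3 with a 4-fold range, 2 under TMM and none without A3688. Their sum was 112 (A3673), 135 (A3685) and 263 CPM (A3688), led by *Mbp*, and *Gfra3* was at 0 in A3673 and A3685.

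The last 2 lists were near the bottom of the scale. Of 7 erythroid genes found 3 were kept, none with a 4-fold range, and the sum was 20.6 (A3673), 27.3 (A3685) and 61.1 CPM (A3688), led by *Hbb-bs*, whose reads can be shared with *Hbb-bt*. Of 11 genes of keratinized epidermis found 4 were kept, 2 with a 4-fold range and none without A3688. The sum was 28.3 (A3673), 25.9 (A3685) and 71.1 CPM (A3688), the most abundant gene was *Sbsn* (A3673), *Krt10* (A3685) or *Calml3* (A3688), and *Ivl* and *Krtdap* were at 0 in A3673 and A3685. The plot of the gene lists gives their spread and the tumor with the highest level side by side.

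**Figure D5:**
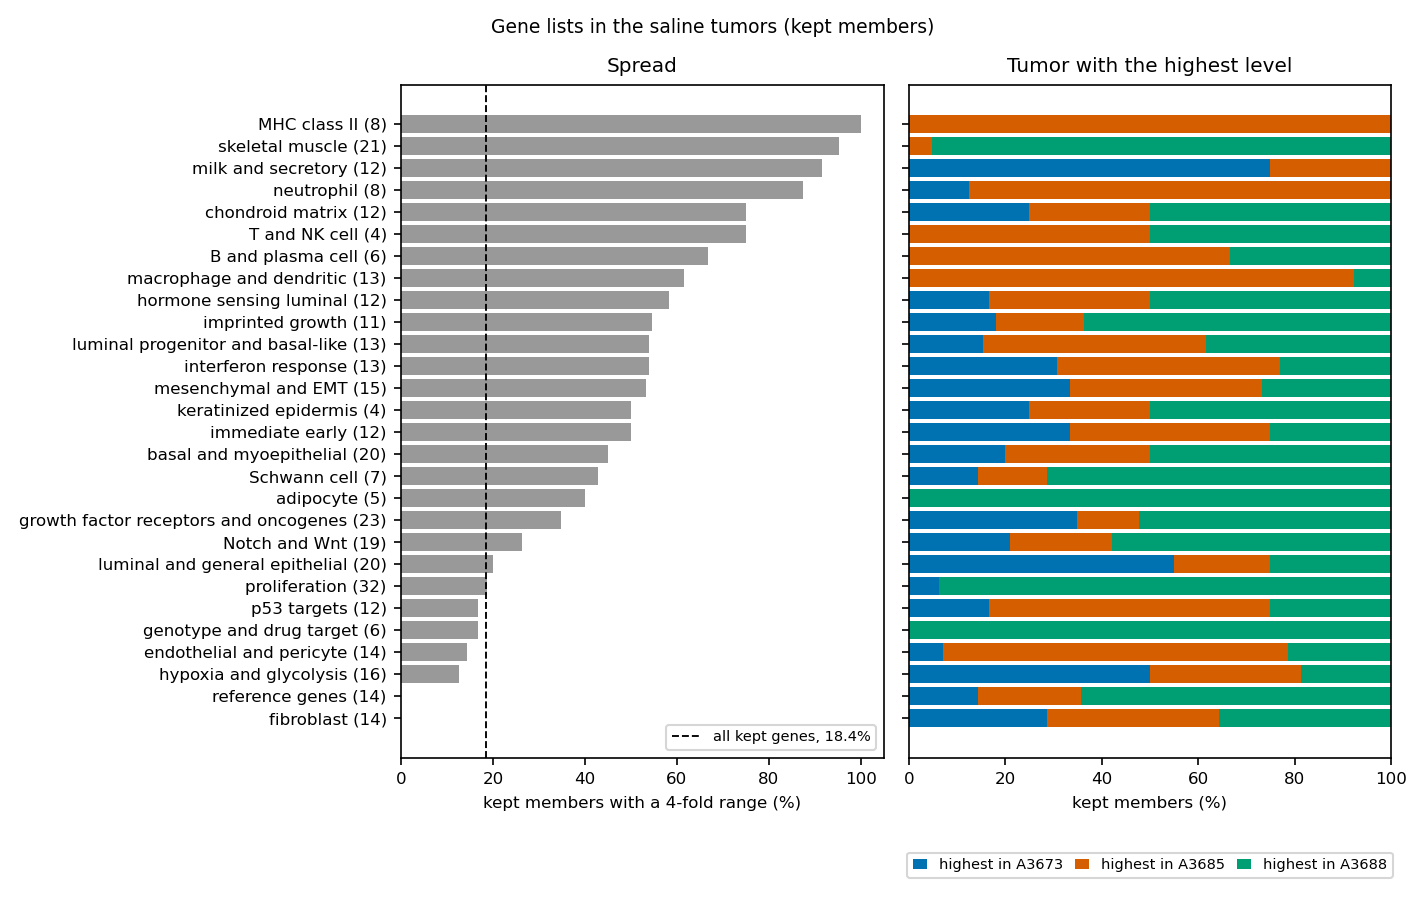
Left, the percentage of kept members with a 4-fold range in each list with at least 4 of them over the saline tumors, with the number kept in brackets and a dashed line at 18.4% for all kept genes. Right, the percentage of kept members highest in each tumor, from counts scaled by column totals. The percentage on the left is largest for MHC class II and skeletal muscle genes and 0 for fibroblast and reference genes, and under TMM 25 of 32 proliferation genes are highest in A3688 in place of 30, and 7 in A3673 in place of 2, with moves of at most 3 genes in the other lists.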

How the data were processed

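The authors isolated total RNA from dissected, frozen tumors with an RNeasy kit, and Novogene sequenced it. They deposited raw read counts per gene. The submitters' processing notes name TopHat2, DESeq2 and mm10, and the counting program, annotation and strand setting were not given in the sources used here. Columns were matched to samples by title. The 3 saline columns were used and the 6 treated ones left out. Identifiers were matched to GENCODE M21 of GRCm38, 34490 found and 785 not. CPM came from column totals, and TPM from counts and merged exon lengths.

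With 1 group, no test was made and no p-value is given. Dispersion was estimated with edgeR 4.0.16 under R 4.3.3, with TMM and an intercept only. Python 3.11.15 was used with pandas 2.3.3, numpy 2.4.6, matplotlib 3.10.9 and scipy 1.17.1.

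Named genes were the 6 markers, the 15 highest by TPM, the 25 largest SDs, in each tumor the 5 farthest above and 5 below both others, the 10 steadiest with a mean of at least 100 CPM, members of the gene lists, and the 3 leading genes of a region; other genes between *Col28a1* and *Impdh1* and in the runs were named after their values were seen. The members and lists were chosen with earlier results of these data known.

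Alternatives were TMM, DESeq2 1.42.0 size factors, totals without mitochondrial genes, pseudocounts of 0.1 and 2 CPM, a mean of at least 5 CPM or 1 count in any tumor, 2-fold and 8-fold thresholds, RLE, the variance stabilizing transformation, tagwise dispersion, the longest transcript, windows of 25 genes, and each tumor left out. Centring in 10 classes of exon length and runs of at least 3 genes were chosen after seeing the data.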

Additional observations from a re-analysis of the deposited data

How the results depend on the processing

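Of 100 values of the main results under an alternative, 79 stayed within their limits, which were 1.5 times for a count and 1 SD of the values without a tumor for the coefficient of variation, and 21 did not. No direction was tested, so none was lost. Of 93 list counts under another scaling, 90 stayed within 1.5 times. With a pseudocount of 2 CPM, which lowers small differences by construction, 1665 genes had a 4-fold range, and the genes above both others were 66 (A3673), 80 (A3685) and 387 (A3688), and those below 51, 26 and 220. With 0.1 CPM, 257 genes were below both others in A3673. With a mean of at least 5 CPM, which leaves fewer genes, 91 were above both others in A3685 and 386 in A3688. A 2-fold threshold gave 7486 genes and an 8-fold threshold 1006. Leaving out a tumor gave 546 to 1885 genes with a 4-fold range, 45 to 123 of 158 list genes with one, and a coefficient of variation of 44.4 to 68.7%, the lowest each time without A3688. The tagwise dispersion shared 35 of the 100 most variable genes, windows of 25 genes gave 66 regions and runs, chosen after seeing the data, 25 in place of 169. Centring within length classes, also chosen after seeing the data, gave 81 genes below both others in A3673 and 99 above in A3685. Where no construction is named, the cause was not tested. No paired analysis was possible because all 3 tumors are of 1 group. Depth limits genes at or under 3 counts, so folds against 0 counts are bounds and those against 1 to 3 counts have wide intervals.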

Other observations

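Several other runs of neighbouring genes stood apart in a tumor, and they are given as values with no explanation. The stefin genes on chromosome 16, whose copies are nearly identical and whose counts are uncertain, were high in A3685 alone, with *Stfa2* at 0.0506 (A3673), 24.6 (A3685) and 0 CPM (A3688). The kallikrein genes *Klk8*, *Klk7* and *Klk6* on chromosome 7 were also high in A3685 alone, with *Klk7* at 0.152 (A3673), 5.70 (A3685) and 0.142 CPM (A3688). On chromosome 18, 6 genes in a row from *Tshz1* to *Timm21* were high in A3673, with the peptidase gene *Cndp2* at 709.9 (A3673), 83.7 (A3685) and 34.6 CPM (A3688).

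In A3688 the longest run above both others held 7 genes on chromosome 9, from *Srpr* to the checkpoint kinase gene *Chek1*, which was at 13.6 (A3673), 4.46 (A3685) and 96.0 CPM (A3688). *Foxred1* and *Fam118b* of this run overlap *Srpr* on the opposite strand, so the counts of these 3 genes and the length of the run are uncertain. Homeobox genes of the Hoxb cluster on chromosome 11 formed another, with *Hoxb2* at 0.0506 (A3673), 0.427 (A3685) and 3.87 CPM (A3688). The interferon-induced genes *Gbp8*, *Gbp9* and *Gbp4* on chromosome 5 were below both others in A3688, with *Gbp9* at 6.23 (A3673), 10.7 (A3685) and 0.708 CPM (A3688). These 3 genes overlap on the same strand, and their separate counts are uncertain.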
